A study of Homo sapiens with 8 samples.

Results

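RXRA, RXRB, RARA, NR3C1 and THRA encode nuclear receptors, and NCOR1 and GPS2 encode subunits of the nuclear receptor corepressor (NCoR) complex. These 7 genes were selected by name with splicing results of the same cells already known, so what is given for them is a description and no test. Every local splicing variation (LSV) listed under the 7 gene names was taken. An LSV is the set of junctions that leave or enter 1 exon, together with a retained intron where there is one, and each junction or intron has an expected share of that set in percent. The 7 genes held 75 of 91480 LSVs without PMA and 74 of 91729 with PMA, and 74 of the 87517 LSVs listed in both states. RXRA had 7 LSVs in both states, RXRB 8, RARA 6, NR3C1 7, THRA 4, NCOR1 24 and GPS2 18.

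The cells were JSL1, a T lymphocyte line grown from 1 clone of the leukemic line Jurkat, and polyadenylated RNA was sequenced in 8 libraries, 2 in each of 4 groups. The groups were control cells and cells depleted of the RNA-binding splicing regulator CELF2 by hairpins that doxycycline induces from an integrated lentivirus, each unstimulated or given the phorbol ester PMA, which imitates part of antigen receptor signalling, at 20 ng/mL for 48 hours. The sources used here do not state if control cells had a hairpin or doxycycline of their own, or if the duplicate libraries were grown separately. The 2 tables that the authors deposited, 1 for each state, hold 1 value per group, to which the labels assign both libraries, so no spread between libraries, read depth or interval can be given. Of 8 T lymphocyte markers 6 had LSVs, and of 6 markers of other cell types 1 had any; the tables hold no expression values, so neither the line nor the depletion of CELF2 could be checked by level.

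Nuclear receptors are transcription factors with a DNA-binding domain of paired zinc fingers and a ligand-binding domain. The retinoid X receptors RXRA and RXRB bind DNA as partners of other receptors, among them the retinoic acid receptor RARA and the thyroid hormone receptor THRA, whereas NR3C1, the glucocorticoid receptor, acts mainly as a homodimer and mediates the death of T cells by glucocorticoids. Without hormone, RARA and THRA recruit NCoR, in which NCOR1 is the scaffold that carries the histone deacetylase HDAC3 and GPS2 is a small structural subunit.

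The sequences below are from 1 called LSV, that of RXRA, and from 5 coding sites of LSVs that were not called. The GPS2 intron, the unannotated RXRA exon and the noncoding NCOR1 exon described later are given by position only. The sequences are coding sequence of GENCODE v29 transcripts, matched to the deposited junctions by intron length within the gene, and the positions are those of the deposited files on hg19. In RXRA the join of the annotated exons at chr9:137293728-137299995, plus strand, is shown because this junction differed most of all members without PMA, with capitals for the first bases of the downstream exon.
RXRA join: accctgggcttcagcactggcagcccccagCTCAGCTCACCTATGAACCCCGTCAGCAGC
In THRA the exon at chr17:38233761-38233861, plus strand, is shown because its skipping had a higher listed share in depleted cells in both states, with the exon in capitals.
THRA exon: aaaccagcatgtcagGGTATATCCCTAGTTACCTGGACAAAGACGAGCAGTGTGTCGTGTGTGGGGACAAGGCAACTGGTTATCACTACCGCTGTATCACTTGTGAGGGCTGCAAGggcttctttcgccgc
RXRB, NR3C1 and NCOR1, all on the minus strand, each use a pair of splice sites a few bases apart. The junctions of the shorter forms are chr6:33163231-33163347 in RXRB, chr5:142689778-142693567 in NR3C1 and chr17:16029520-16040625 in NCOR1. The longer forms are printed, with their extra bases in capitals.
RXRB longer form: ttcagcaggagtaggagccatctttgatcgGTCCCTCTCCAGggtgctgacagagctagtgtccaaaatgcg
NR3C1 longer form: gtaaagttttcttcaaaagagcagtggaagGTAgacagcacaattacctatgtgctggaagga
NCOR1 longer form: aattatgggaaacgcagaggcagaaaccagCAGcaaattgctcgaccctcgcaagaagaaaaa
The NCOR1 exon at chr17:16054904-16054930, minus strand, is shown in capitals because its inclusion and its skipping were both common in all 4 groups.
NCOR1 exon: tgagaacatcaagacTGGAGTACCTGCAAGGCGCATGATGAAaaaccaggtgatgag

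Depletion of CELF2 came with large changes at 1 LSV of RXRA and 1 of GPS2, in both states, and with smaller differences elsewhere. Here an LSV counts as called if, for any of its junctions, the authors give a posterior of at least 0.95 that the share changed by 20 percentage points or more; this probability is not a p-value. Without PMA 2 of the 75 LSVs were called, or 2.67%, where 0.985% of all LSVs in the table were. With PMA the same LSVs of RXRA and GPS2 made 2 of 74, or 2.7%, where 1.87% of all LSVs were called. Both called LSVs are marked in the tables as holding a de novo junction. So are 49 of the 74 LSVs listed in both states, among them all 7 of RXRA and 16 of 18 of GPS2. A difference of at least 20 points between the listed shares was present in 3 of 75 LSVs without PMA and 4 of 74 with PMA, in RXRA, GPS2 and NCOR1, where 2.76% and 4.22% of all LSVs had one. Because the genes were chosen with these contrasts known, nothing is read from these shares. Of the 74 LSVs in both tables, 60, or 81.1%, had no difference of 10 points or more between control and depleted cells or between states, close to the 78.6% of all LSVs. This held for every LSV of RARA and THRA, and for 6 of 7 in RXRA, 4 of 8 in RXRB, 5 of 7 in NR3C1, 19 of 24 in NCOR1 and 16 of 18 in GPS2. In 45 of 74 LSVs, or 60.8%, a single junction held at least 90% in all 4 groups, against 65.6% of all LSVs. Over the 74 LSVs the median of the largest difference between control and depleted cells was 1.0 point without PMA and 0.7 with it, against 0.4 and 0.7 over all LSVs listed in both tables.

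**Figure D1:**
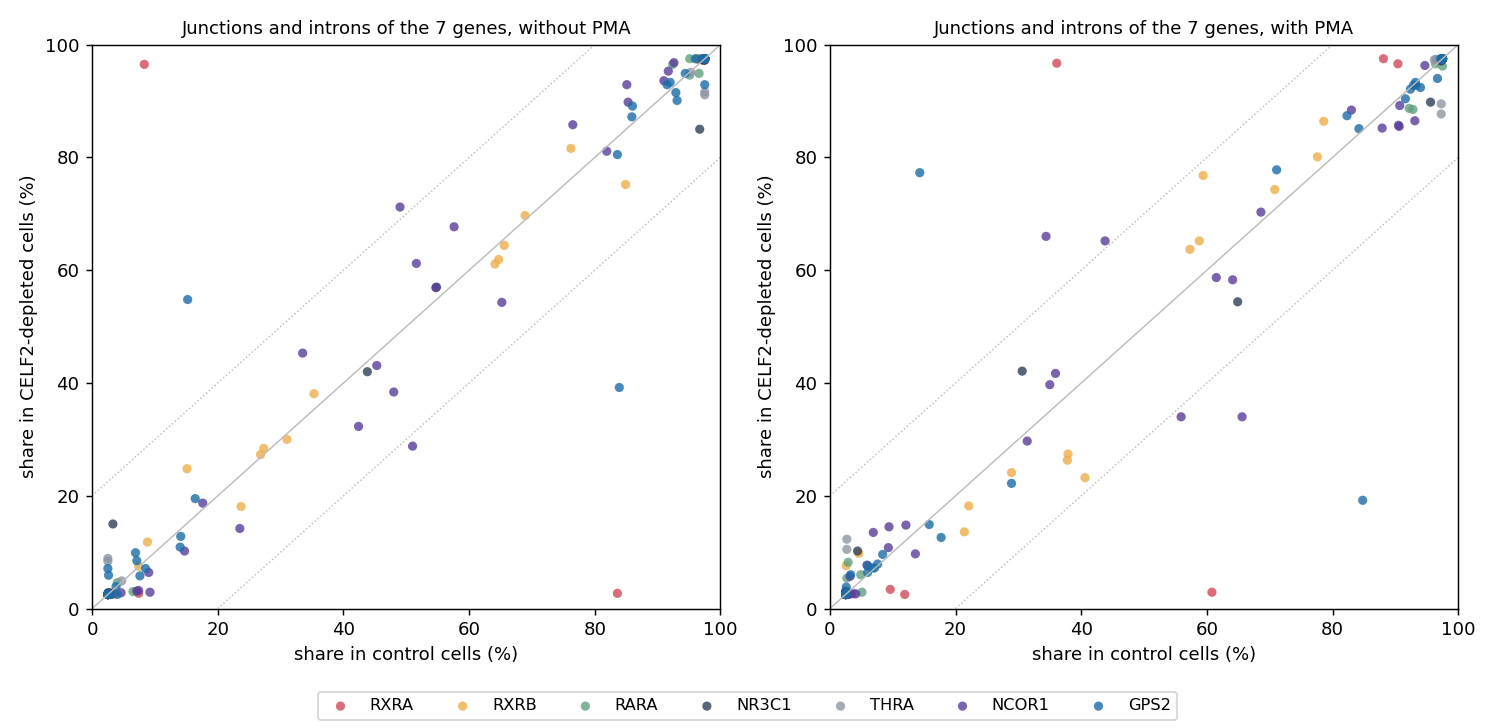
Expected shares of every junction and retained intron of the 7 genes in LSVs listed in both states, in percent, in control cells (x axis) and CELF2-depleted cells (y axis), without PMA on the left and with PMA on the right, 1 point per junction or intron. Dotted lines mark a difference of 20 points. RXRA, GPS2 and NCOR1 have points outside them in both states. The NCOR1 junctions that lie outside them in both states change sides of the diagonal between the states.

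RXRA had the largest difference of the 7 genes without PMA, and with PMA the second to GPS2. The exon concerned, at chr9:137299995-137300145 and 151 nt long, can be entered from the annotated coding exon upstream or from an exon at chr9:137298428-137299501 that lies between them. The upstream exon is listed as chr9:137293478-137298240, and its annotated donor is within this span. The junction from the annotated exon, chr9:137293728-137299995, held 8.3% in control and 96.5% in depleted cells without PMA, and 36.1% in control and 96.7% in depleted cells with PMA. Control cells without PMA thus used this junction least, control cells with PMA came next, and depleted cells used little else in either state. The rise was 88.2 points without PMA and 60.6 with it, both with a posterior of 1.0, and the authors' deposited tables give expected changes of 90.5 and 62.2 points.

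The competing junction, chr9:137299338-137299995, held 83.6% in control and 2.7% in depleted cells without PMA, and 60.8% and 2.9% with PMA. It fell by 80.9 points without PMA and fell by 57.9 points with PMA, to near the lowest share the tables hold: listed shares run from 2.5% to 97.5%, so 2.5% cannot be told from 0. This junction leaves the exon at chr9:137298428-137299501. A second donor of that exon, at 137299501, held 7.4% in control and 2.7% in depleted cells without PMA and 2.5% in both with PMA. Another junction, to an acceptor at 137300000, 5 nt further into the 151-nt exon, held 2.5% to 2.7% in all 4 groups.

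The 6266-nt intron of the junction that rose has the length of intron 2 of 9 in the GENCODE v29 transcript RXRA-202, and the join printed above follows 279 coding bases, that is 93 whole codons. The 151-nt exon begins before the part of the gene that encodes the DNA-binding domain. The introns of 656, 493 and 661 nt that start in the exon at chr9:137298428-137299501 match no intron of RXRA in GENCODE v29 by length, and 0 listed junctions enter that exon, so the tables do not show what lies upstream of it; a junction with no competitor forms no LSV and is not listed. Over all 15 junctions of RXRA, 4 matched an annotated intron by length, against 105 of 136 for the 7 genes together.

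The other 6 LSVs of RXRA, which cover the exons for the DNA-binding and ligand-binding domains, had differences under 10 points in every comparison. The largest of these was at the last exon, chr9:137328313-137332431, where a junction from an exon of 95 nt at chr9:137327877-137327971 held 3.5% in control and 2.6% in depleted cells without PMA. With PMA it held 11.9% in control and 2.5% in depleted cells, a difference of -9.4 points with a posterior of 4.64e-08. Read from the upstream exon, the junction into the same 95-nt exon held 2.6% in both kinds of cells without PMA, and 9.6% in control and 3.4% in depleted cells with PMA. Both readings placed control cells with PMA highest, and neither LSV was called.

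Across 241138 junctions and introns listed in both states, the genes with the pattern most like that of the leading RXRA junction over the 4 groups were ARHGEF3, at a mean absolute difference of 8.0 points, ARHGEF11 at 9.3 and EXOC4 at 11.2. ARHGEF3 had a junction at 13.7% in control and 93.8% in depleted cells without PMA, and 12.7% and 96.4% with PMA. In ARHGEF11 the shares were 3.7%, 97.1%, 5.8% and 95.2% in the same order. In EXOC4, a subunit of the exocyst, they were 46.9%, 97.5%, 31.7% and 97.5%. All 3, picked for this likeness, held 93.8% or more in both groups of depleted cells. In none of them was the share in control cells with PMA at least 20 points above that without PMA, as it was in RXRA.

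GPS2 changed in the listed share of a retained intron before its coding sequence, read at the downstream end only. At the exon chr17:7218278-7218442, which holds the start codon, 2 junctions and a retained intron of 128 nt at chr17:7218443-7218570 compete. The retained intron held 15.2% in control and 54.8% in depleted cells without PMA, and 14.3% and 77.3% with PMA. The 2 groups of control cells were within 0.9 points of each other and both groups of depleted cells stood far above them, the PMA-treated group highest. The rise was 39.6 points without PMA (posterior 0.991) and 63.0 with PMA (posterior 1.0), and the authors' deposited tables give expected changes of 40.5 and 64.7 points. Of all readings of retained introns in the tables, 0.574% without PMA and 0.945% with PMA were called higher in depleted cells. An intron read at both ends counts at each.

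The main spliced form of GPS2, the junction chr17:7218438-7218650 with an intron of 211 nt, mirrored this. It held 83.9% in control and 39.2% in depleted cells without PMA, and 84.8% and 19.2% with PMA. It fell by 44.7 points without PMA and by 65.6 points with PMA. A junction to a nearer upstream exon, with an intron of 132 nt, held 2.6% and 5.9% without PMA and 2.6% and 3.8% with PMA, a difference of at most 3.3 points. The 211-nt intron is intron 1 of 10 in GPS2-201, and its join lies 67 bases before the start codon, so the retained intron lies in the 5′ untranslated region.

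This intron stood apart from the rest of GPS2. The other 8 listed introns, with 15 readings, were retained at 2.5% to 28.9% in all 4 groups, and their largest difference between control and depleted cells was 6.7 points, with no posterior over 0.0109. The most retained of them, the 148-nt intron at chr17:7217077-7217224, was at 16.4% in control and 19.5% in depleted cells without PMA, and at 28.9% and 22.2% with PMA. A 140-nt intron at chr17:7218138-7218277, next to the exon with the start codon on its downstream side, was at 14.1%, 12.8%, 17.7% and 12.6% in the same order. The leading intron was read only at its downstream end, so retention over its whole length is not shown. A transcript that begins within the intron cannot be told apart from retention here. By contrast, 11 introns of the 7 genes were read at both ends. There the 2 readings of an intron in a group differed by a median of 2.1 points and by 20.2 points at most. A further gene entry of the tables overlaps GPS2 on the same strand with 22 LSVs of its own, and 9 of the 18 GPS2 LSVs have the same junctions in it. The LSV with the leading intron is not among them, and 0 LSVs of that entry were called, with a highest posterior of 1.09e-05 without PMA and 0.423 with PMA.

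**Figure D2:**
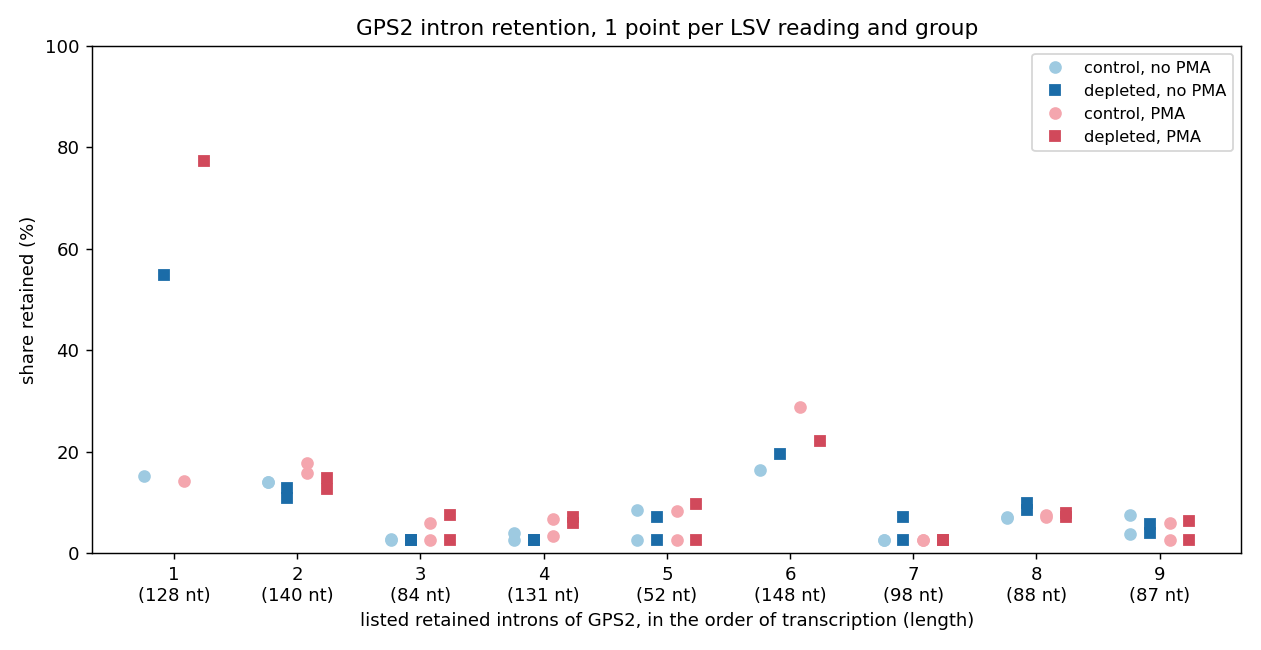
Share retained (y axis, percent) of the 9 listed introns of GPS2 in the order of transcription (x axis, with length in nt), 1 point for each reading and group; circles are control and squares depleted cells, blue without and red with PMA. Intron 1 lies at 54.8% and 77.3% in depleted cells, and the other 8 lie between 2.5% and 28.9% in all groups.

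NCOR1, the scaffold of the complex, had the only LSV of the 7 genes in which the difference between control and depleted cells was of at least 20 points in opposite directions in the 2 states. The exon concerned is a noncoding exon of 119 nt in NCOR1-209, listed within chr17:16101485-16102033, between the first exon at chr17:16118676-16118863 and the exon with the start codon at chr17:16097776-16097953. Read at the first exon, inclusion (chr17:16102033-16118676) held 51.0% in control and 28.8% in depleted cells without PMA, and 34.4% and 66.0% with PMA. Inclusion was thus lower in depleted cells without PMA and higher in depleted cells with PMA. The differences were -22.2 and 31.6 points, with posteriors of 0.545 and 0.881, so neither was called. Of the 87517 LSVs in both tables, 48, or 0.0548%, held a junction with differences of that size in opposite directions. The skipping junction, chr17:16097953-16118676, held 49.0% and 71.2% without PMA and 65.6% and 34.0% with PMA.

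The reading at the other end was weaker in the same directions. At the exon with the start codon, inclusion of the 119-nt exon (chr17:16097953-16101915) held 48.0% in control and 38.4% in depleted cells without PMA, and 43.8% and 65.2% with PMA. These differences were -9.6 and 21.4 points, with posteriors of 0.024 and 0.349. The joins lie 189 and 70 bases before the start codon, so the 119-nt exon is in the 5′ untranslated region.

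The remaining NCOR1 differences were in coding exons and were smaller. The 27-nt exon printed above was skipped in 57.6% of the share in control and 67.7% in depleted cells without PMA, and in 68.6% and 70.3% with PMA, read at the downstream exon. Read at the upstream exon the skipping junction held 54.7%, 56.9%, 64.1% and 58.3% in the same order. Both forms were common in all 4 groups, and the highest posterior was 0.0308. The exon at chr17:15990486-15990659, 174 nt, was included at 23.5% in control and 14.2% in depleted cells without PMA, and at 6.9% and 13.5% with PMA, when read at the downstream exon. At its upstream neighbour the inclusion junction held 14.7%, 10.2%, 9.4% and 14.5%, so control cells without PMA stood above the others at one end and level with depleted cells with PMA at the other. The pair of acceptors 3 nt apart at 16029523 and 16029520, which adds or leaves out the codon-length CAG printed above, gave the longer form 33.5% in control and 45.3% in depleted cells without PMA, and 35.0% and 39.7% with PMA. The shorter form held 65.2%, 54.3%, 61.5% and 58.7%, and the highest posterior of this LSV was 0.0449. Of the 20 pairs of sites at most 100 nt apart in the 7 genes, 12 were in NCOR1, which also has the most LSVs, and 11 of these 12 were a multiple of 3 apart, 5 of them by 3 nt. At the other 4 pairs 3 nt apart, the shorter form held 2.5% to 10.8% in all groups. An acceptor pair 48 nt apart at 16005119 and 16005071 gave the shorter form 17.6% in control and 18.7% in depleted cells without PMA, and 13.6% and 9.7% with PMA. Of the 24 NCOR1 LSVs in both tables, 13 had a single junction of at least 90% in all 4 groups and 19 had no difference of 10 points or more.

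**Figure D3:**
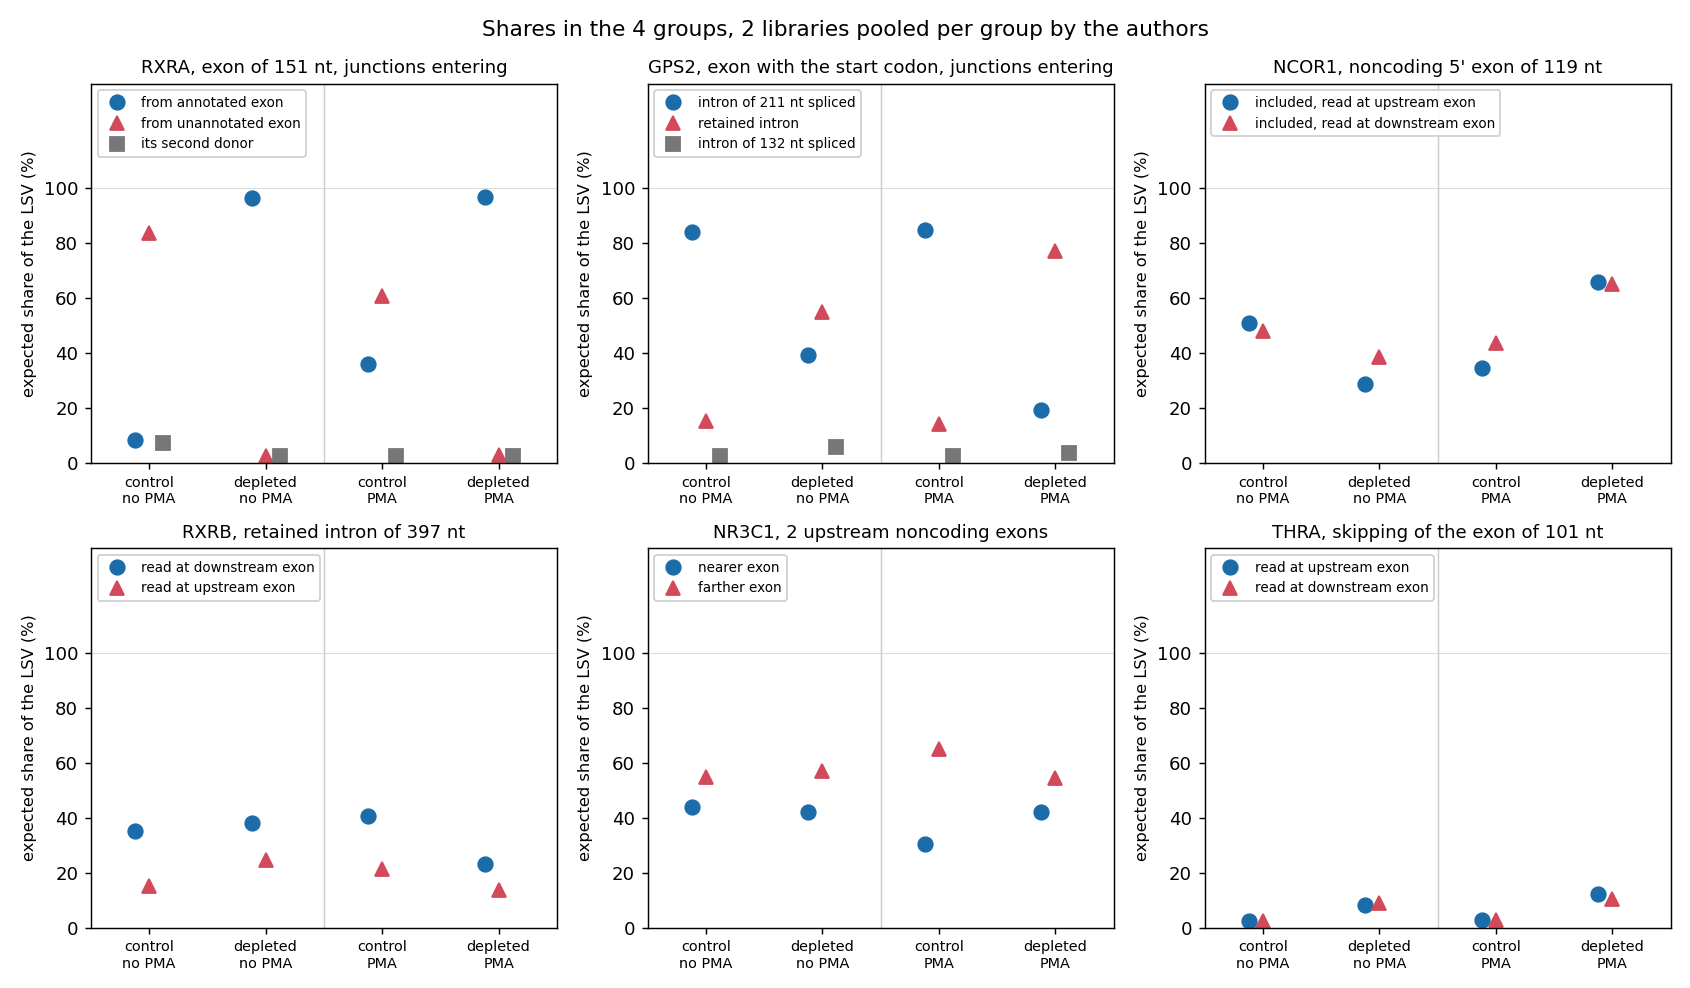
Expected share of the LSV (y axis, percent) in control and CELF2-depleted cells without and with PMA (x axis) for 1 event in each of 6 genes; each symbol is 1 junction or intron, or 1 of the 2 ends at which it was read. The RXRA junction from the annotated exon lies at 96.5% and 96.7% in the depleted groups, GPS2 intron retention at 54.8% and 77.3%, and THRA exon skipping between 2.5% and 12.3%.

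RXRB, the paralog of RXRA, had no called LSV and no difference of 20 points. Its largest difference was in an intron of 397 nt at chr6:33163814-33164210, in the part of the gene for the ligand-binding domain. Read at the downstream exon, it was retained at 35.3% in control and 38.1% in depleted cells without PMA, and at 40.6% and 23.2% with PMA. Read at the upstream exon, it was at 15.1%, 24.8%, 21.4% and 13.6% in the same order. In both readings the depleted cells were above the controls without PMA and below them with PMA. The differences were 2.8 and -17.4 points at the downstream exon and 9.7 and -7.8 at the upstream exon, and the highest posterior was 0.496. The 2 readings differed by up to 20.2 points in 1 group, more than depleted and control cells differed in either reading.

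At the acceptor pair 12 nt apart in RXRB, the longer form with the bases printed above held 26.8% in control and 27.3% in depleted cells without PMA, and 37.8% and 26.3% with PMA. The shorter form held 64.1%, 61.1%, 57.3% and 63.7%. Control cells with PMA stood 11.0 points above control cells without it, and the other 3 groups lay within 1.0 point of each other. The highest posterior for depletion at this LSV was 0.112. Because 12 is a multiple of 3, both forms keep the frame. Introns of 103 nt and 82 nt nearby were retained at 2.6% to 11.8% and at 18.1% to 31.0%.

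The glucocorticoid receptor NR3C1 had no called LSV. Its first coding exon, at chr5:142779468-142780417 as listed, receives junctions from many upstream noncoding exons. Of these, the exons at chr5:142782776-142783265 and chr5:142783941-142784109 held nearly the whole share. The nearer held 43.8% in control and 42.0% in depleted cells without PMA, and 30.6% and 42.1% with PMA. The farther held 54.8%, 57.0%, 64.9% and 54.4%. Control cells with PMA stood apart from the other 3 groups, with a difference of -13.2 points between states for the nearer exon in control cells and 0.1 in depleted cells. The highest posterior of the LSV for depletion was 0.0346.

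The pair of donors 3 nt apart in NR3C1 lies between the 2 zinc fingers, and the longer form with GTA is known as the glucocorticoid receptor gamma isoform. It held 3.3% in control and 15.0% in depleted cells without PMA, and 4.4% and 10.2% with PMA. Depleted cells were above control cells in both states, by 11.7 and 5.8 points, but the authors' model gives expected changes of 5.7 and 0.362 points and posteriors of 0.0464 and 0.000357. A 78-nt stretch of the first coding exon that is listed as an intron was retained at 97.2% to 97.5% in all groups.

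In the thyroid hormone receptor THRA, skipping of the 101-nt exon printed above had a higher listed share in depleted cells in both states, without a call. This exon encodes the first zinc finger of the DNA-binding domain, and its length is not a multiple of 3. The skipping junction chr17:38233191-38240088 held 2.5% in control and 8.4% in depleted cells without PMA, and 2.7% and 12.3% with PMA, read at the upstream exon. Read at the downstream exon it held 2.5%, 8.9%, 2.7% and 10.5%. Control cells were at the lowest listed share or close to it in all 4 readings, and depleted cells were above it in all 4. The differences were 5.9 and 9.6 points at the upstream exon and 6.4 and 7.8 at the downstream exon. The authors' model gives smaller expected changes, 3.24 and 7.17 points at the upstream exon and 4.27 and 3.52 at the downstream exon. The posteriors for a change of 20 points were 0.000335 or less. The intron of the skipping junction, 6896 nt, matches no THRA intron in GENCODE v29 by length. Neither of the other 2 THRA LSVs differed by more than 2.2 points in any comparison.

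The retinoic acid receptor RARA, the partner of RXRA, differed least of the 7 genes between control and depleted cells, by its largest difference in either state. This was 4.1 points without PMA and 5.3 with PMA, and none of its 6 LSVs had a posterior over 0.000194. The junction chr17:38474700-38504568, which skips the exon at chr17:38487109-38487648, held 4.0% in control and 4.6% in depleted cells without PMA, and 2.9% and 8.2% with PMA, read at the upstream exon. Read at the downstream exon it held 2.9%, 2.8%, 2.7% and 5.4%. Depleted cells with PMA were highest in both readings. In 4 of its 6 LSVs a single junction held at least 90% in all 4 groups.

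Between states, the authors' tables hold no measure of error, and the differences were not tested. A difference of at least 20 points between PMA-treated and unstimulated control cells was present in 1 of 74 LSVs of the 7 genes, where 2.58% of all LSVs had one. This was the RXRA LSV, in which the junction from the annotated exon was 27.8 points higher with PMA in control cells and 0.2 points higher in depleted cells. Depleted cells already held 96.5% without PMA, and listed shares stop at 97.5%. A rise like that of control cells could therefore not appear in depleted cells. In depleted cells 3 of 74 LSVs had such a difference, where 1.86% of all LSVs had one. They were both NCOR1 LSVs of the 119-nt exon, whose inclusion was 37.2 and 26.8 points higher with PMA in depleted cells, and the GPS2 LSV, whose intron was 22.5 points higher. In control cells those 3 LSVs differed by 16.6, 4.3 and 0.9 points at most. A share in bulk RNA does not separate an equal use of both forms in all cells from cells that use 1 form each; these cannot be told apart here.

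Of 99 other genes of receptor signalling, in 5 lists, 60 had LSVs in each state. Called LSVs were present in 3 of 60 genes, or 5.0%, without PMA and in 6 of 60, or 10%, with PMA, where 6.2% and 10.6% of all genes had one. All 3 genes called without PMA were corepressors, of 12 listed: TBL1X and TBL1XR1, the WD40 subunits that join GPS2 and NCOR1 in the NCoR core, and SIN3B, a scaffold of another deacetylase complex. In TBL1X a junction rose with depletion from 50.5% to 88.0%, and in TBL1XR1 one rose from 34.9% to 70.9%; neither of these LSVs is listed with PMA. A SIN3B intron rose from 47.8% to 82.9% retained without PMA. With PMA the same intron was at 74.9% in control and 43.4% in depleted cells, the opposite direction, with a posterior of 0.945 that misses the threshold. A second SIN3B LSV, at the next exon, had a junction that rose from 60.2% to 86.5% without PMA (posterior 0.953). With PMA that junction was at 79.4% in control and 73.2% in depleted cells, with a posterior of 0.00195.

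With PMA the called corepressor genes were 2 of 12, the deacetylases HDAC7, where a junction fell from 86.7% to 58.2%, and HDAC9, where one fell from 86.7% to 47.1%. Without PMA the HDAC7 junction was at 51.3% in control and 56.3% in depleted cells, with a posterior of 0.00138. A second called HDAC7 LSV had a junction at 89.8% in control and 60.7% in depleted cells with PMA. Without PMA that junction was at 46.3% and 45.6%. The HDAC9 LSV is not listed without PMA. Of 15 coactivators, 0 were called without PMA and 3 with PMA. Of these, NCOA1, a steroid receptor coactivator, had a junction that fell from 91.7% to 56.7%, and this junction was at 74.1% and 48.5% without PMA, with a posterior of 0.938. In its paralog NCOA2 a junction rose from 25.5% to 82.6% with PMA and was at 74.0% and 80.6% without. In NCOA5 a junction rose from 52.3% to 91.3% with PMA and was at 86.5% and 95.1% without. Of the other nuclear receptors, 0 of 19 were called without PMA and 1 of 18 with PMA: NR1H3, the oxysterol receptor LXR alpha, where a junction fell from 63.5% to 23.7%. The NR1H3 LSVs are not listed without PMA, so the counts do not compare the same LSV in both states. The chaperones of steroid receptors, 9 of 9 listed, had 0 calls in either state. The genes of retinoid and hormone handling also had 0, with 5 listed without PMA and 6 with PMA. The median largest difference over the LSVs of the lists was 0.3 points without PMA and 0.5 with PMA, against 0.5 and 0.8 over all LSVs of each table, including those listed in 1 state only.

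**Figure D4:**
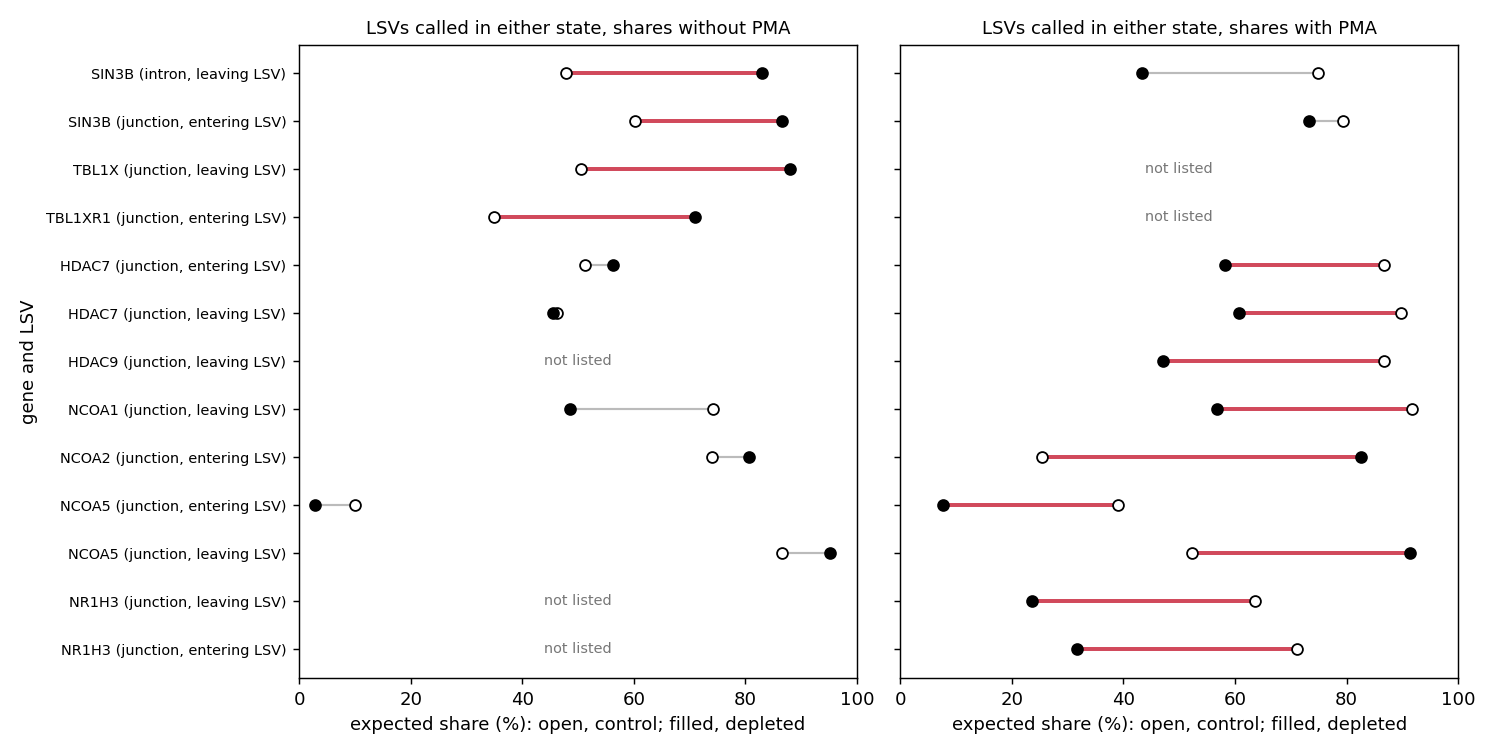
Expected shares (x axis, percent) of the leading junction or intron of each LSV (y axis) called in either state among the 99 other genes, without PMA on the left and with PMA on the right; open circles are control and filled circles depleted cells, red lines mark LSVs called in that state and grey lines those not called. The SIN3B intron runs from 47.8% to 82.9% without PMA and from 74.9% to 43.4% with PMA.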

How the data were processed

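Per the labels' protocols, polyadenylated RNA of JSL1 cells was made into TruSeq stranded libraries. Per the submitters' processing notes, STAR 2.5.1b and hg19 were used; their roles are not stated there. Per the file headers, the authors deposited for each LSV the expected fraction of each junction per group, the expected change (depleted minus control) and the posterior probability that it is 20 percentage points or more. The headers match the output of VOILA, which belongs to MAJIQ; no source used here states its version, annotation or read filters. Fractions were multiplied into percent, and differences between states are subtractions across separately quantified tables. The parser was tested on simulated data. Python 3.11.15 with pandas 2.3.3 was used. The members and gene lists were chosen with earlier results of these data known. Named are all 7 members, their LSVs that were called or differed by at least 20 points, otherwise the largest difference, and listed genes with a call; the further NCOR1, RXRB and NR3C1 sites and splice site pairs were chosen after their values were seen. Sequences are from GENCODE 29 (GRCh38), matched by intron length. Alternatives changed the threshold, left out LSVs with a de novo junction or a retained intron, or kept LSVs of junctions that leave an exon.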

Additional observations from a re-analysis of the deposited data

Results flagged for a closer look

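The NCOR1 LSV at the first exon was singled out because depleted and control cells differed in opposite directions in the 2 states. The inclusion junction of the 119-nt exon differed by -22.2 points without PMA and by 31.6 with PMA, and the skipping junction by 22.2 and -31.6. The difference between the states was not tested, because the tables hold no error for it. Read at the exon with the start codon, the differences were smaller and had the same signs. The skipping junction is the same in both readings, so these are not independent.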

How the results depend on the processing

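The 2 called LSVs in each state were also 2 at a posterior of 0.90 and at 0.99. Counting differences of at least 20 points gave 3 LSVs without PMA and 4 with PMA. Leaving out LSVs that hold a de novo junction left 25 LSVs in each state, with no LSV of RXRA among them, and 0 were called. Without LSVs that hold a retained intron 1 was called in each state (RXRA). Among LSVs of junctions that leave an exon 0 were called in either state. Both called LSVs are read at the downstream exon and both hold a de novo junction, so the counts of 0 follow from that. For PMA in control cells, the count of 1 was 0 at 30 points and 0 without LSVs with a de novo junction. For PMA in depleted cells, the count of 3 was 1 at 30 points and 2 without LSVs with a retained intron or with a de novo junction. Read from the other end, the NCOR1 junction that skips the 119-nt exon, the RXRB intron of 397 nt and the THRA junction that skips the 101-nt exon kept their sign in both states. For NCOR1 and THRA the same junction is listed at both ends, so the 2 readings are not independent. The NCOR1 junction that skips the 27-nt exon, outside those alternatives, differed with PMA by 1.7 points at one end and by -5.8 at the other. No paired analysis was possible because the deposited tables hold 1 value per group. Depth per LSV is not known, so shares near 2.5% or 97.5% and small differences carry no interval.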

Other observations

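Over the same 241138 junctions and introns, the feature most like the leading GPS2 intron in the 4 groups was in MYL6, a myosin light chain. Its mean absolute difference was 4.1 points. Next came APBB2, an adaptor protein, at 4.4, and RP11-848P1.9 at 6.9. The MYL6 feature held 17.1% in control and 63.5% in depleted cells without PMA, and 11.7% and 73.9% with PMA. That of APBB2 held 15.2%, 67.1%, 17.7% and 79.0% in the same order, and that of RP11-848P1.9 held 22.1%, 57.7%, 27.4% and 82.0%. All 3 were lower in the 2 control groups than in the 2 depleted groups, as GPS2 intron retention was. They were picked for this likeness, which is a description over 4 values.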
